A study of Mus musculus with 9 samples.

Results

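Hearts of mice that carried both a fibroblast-directed deletion of Myc and a pressure load were compared with hearts of unloaded wild-type mice. The comparison used 6 of the 9 libraries of the series, 3 labelled KO-TAC and 3 labelled control, chosen by their titles, and 18270 of the 55401 rows of the count table had enough counts to be tested. In the KO-TAC mice both Myc alleles were floxed and a tamoxifen-inducible Cre was driven by Tcf21 (c-Myc flox/flox; Tcf21 iCre). Tamoxifen is described for this line at 45 mg/kg on 5 days in a row. These mice then underwent transverse aortic constriction (TAC), a surgical narrowing of the aorta against which the left ventricle has to pump, and their titles give 12 weeks. The control hearts are labelled wild type with the treatment "control", and the design text speaks of a sham operation. All mice were male and 8 to 12 weeks old at the operation. Genotype, Cre and load changed together between the groups and cannot be told apart here, since no loaded heart with Cre but intact Myc and no unloaded knockout heart was analysed. The labels used here do not state whether wild-type mice received tamoxifen, so whether the groups differ in it is not known. RNA came from the heart as tissue, so a transcript made by fewer cells and one made at a lower level per cell cannot be told apart. Nothing in the labels ties each library to a separate mouse, and p-values therefore describe only how far these samples scatter, which may be technical.

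Myc encodes a basic helix-loop-helix transcription factor that pairs with Max, binds the E-box CACGTG and drives growth, ribosome production and proliferation. In heart muscle under pressure load, the textbook response is hypertrophy: ventricular myocytes return to fetal natriuretic peptide and contractile genes, lower the genes of calcium cycling, repolarising currents and fatty acid oxidation, and fibroblasts lay down matrix. Tcf21 is a transcription factor of the epicardial lineage that resting cardiac fibroblasts keep, and for that reason its locus is used to drive Cre in them.

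The total count was 90735311, 70604656 and 90651437 in control replicates 1, 2 and 3, and 109162107, 70631952 and 83909693 in KO-TAC replicates 1, 2 and 3. Expression is given as CPM (a count relative to the scaled library total), scaled with TMM factors over the 6 libraries. Cardiomyocyte genes were the highest of the marker lists in every library, with a summed level of 67120 to 68350 CPM in control and 42840 to 64090 CPM in KO-TAC hearts over 10 markers. Of the markers of lung, of thymus and of neck and chest tissue, 2 of 7, 1 of 5 and 1 of 6 had enough counts to be tested. Sln, an atrial gene, had a count of 0 in all 6 hearts and Myl7, the atrial myosin light chain, was at 0 to 0.462 CPM. The KO-TAC hearts differed from one another more than the control hearts did, with a median SD of log2 CPM over genes of 0.317 against 0.164. Along the leading principal component (37.7% of the variance) control hearts scored -54.7 to -31.7 and KO-TAC replicates 1, 2 and 3 scored 71.2, 48.6 and 1.9. KO-TAC replicate 3 was therefore the KO-TAC heart nearest to control, and KO-TAC replicate 1 the farthest. The share of counts from the mitochondrial genome was 30.89% to 34.41% in control hearts and 23.78%, 26.18% and 30.64% in KO-TAC replicates 1, 2 and 3. Across genes, which are not replicates, the Spearman correlation of exon length with the difference from the control mean was -0.074 to 0.083 in control and -0.22 to -0.16 in KO-TAC hearts, so short transcripts counted for more in the KO-TAC libraries.

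Myc itself (chromosome 15, 61985391 to 61990374, GRCm38) was not below control in the KO-TAC hearts as a group. Its level was 2.08, 2.40 and 1.51 CPM in the control hearts and 4.12, 1.82 and 4.62 CPM in the KO-TAC hearts. KO-TAC replicates 1 and 3 were above every control heart and replicate 2 lay among them, and the log2 difference of 0.82 (SE 0.36) did not pass (edgeR quasi-likelihood test, adjusted p = 0.271). The wild-type TAC hearts had 8.93, 6.22 and 14.21 CPM on the scale of all 9 libraries, where the KO-TAC hearts had 4.22, 1.87 and 4.75 CPM. Every KO-TAC heart was thus below every wild-type TAC heart, by -1.44 (SE 0.41) on the log2 scale, which did not pass over all genes (edgeR 9-library fit, adjusted p = 0.555). The table counts a gene as a whole, so transcripts from floxed alleles and from cells without Cre were added together. Tcf21 was at 4.76, 6.25 and 6.20 CPM in control and 3.99, 3.79 and 4.01 CPM in KO-TAC hearts, with every KO-TAC heart below every control heart. The log2 difference of -0.55 (SE 0.18) did not pass (edgeR adjusted p = 0.189). Wild-type TAC hearts had 5.981, 6.068 and 6.886 CPM of Tcf21 on the scale of all 9 libraries. Of the 14 genes of the Myc network, which holds Myc, its partner Max and the Mxd repressors, 0 passed, and the median log2 difference was 0.07. Nucleolar and growth genes known as Myc targets gave 0 of 37 passing and a median of 0.09, beside 0.03 over all genes tested. Over all genes 0.164% passed, so 0 calls in lists of these sizes does not show that the lists were unchanged.

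Over all genes, 30 of 18270 passed an adjusted p under 0.05 (edgeR quasi-likelihood test, Benjamini-Hochberg), which is 0.164%. Of these, 16 genes (0.0876%) were higher in KO-TAC hearts and 14 (0.0766%) were lower. At so low a share, 0 edgeR calls in a gene list says little about that list. At an unadjusted p under 0.05 there were 3452 genes, 18.9% of those tested, with 1796 higher and 1656 lower. DESeq2 called 546 genes higher (2.99%) and 552 lower (3.02%), and 29 of the 30 were among them; it gave Lypd2 no adjusted p. The number of calls turned on single libraries: without KO-TAC replicate 3, the heart nearest to control, edgeR called 843 higher (4.4%) and 1076 lower (5.61%), and all 30 were kept. Without control replicate 1, 2 or 3 the calls were 1, 4 and 4, without KO-TAC replicate 1 they were 44 and without KO-TAC replicate 2 they were 4. A fit to all 9 libraries, in which the widely spread wild-type TAC hearts share the estimate of the spread, called 0 genes, with 1098 at an unadjusted p under 0.05. With library size alone in place of TMM factors the split was 17 higher and 2 lower, and the median over all genes was 0.27 on the log2 scale.

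**Figure D1:**
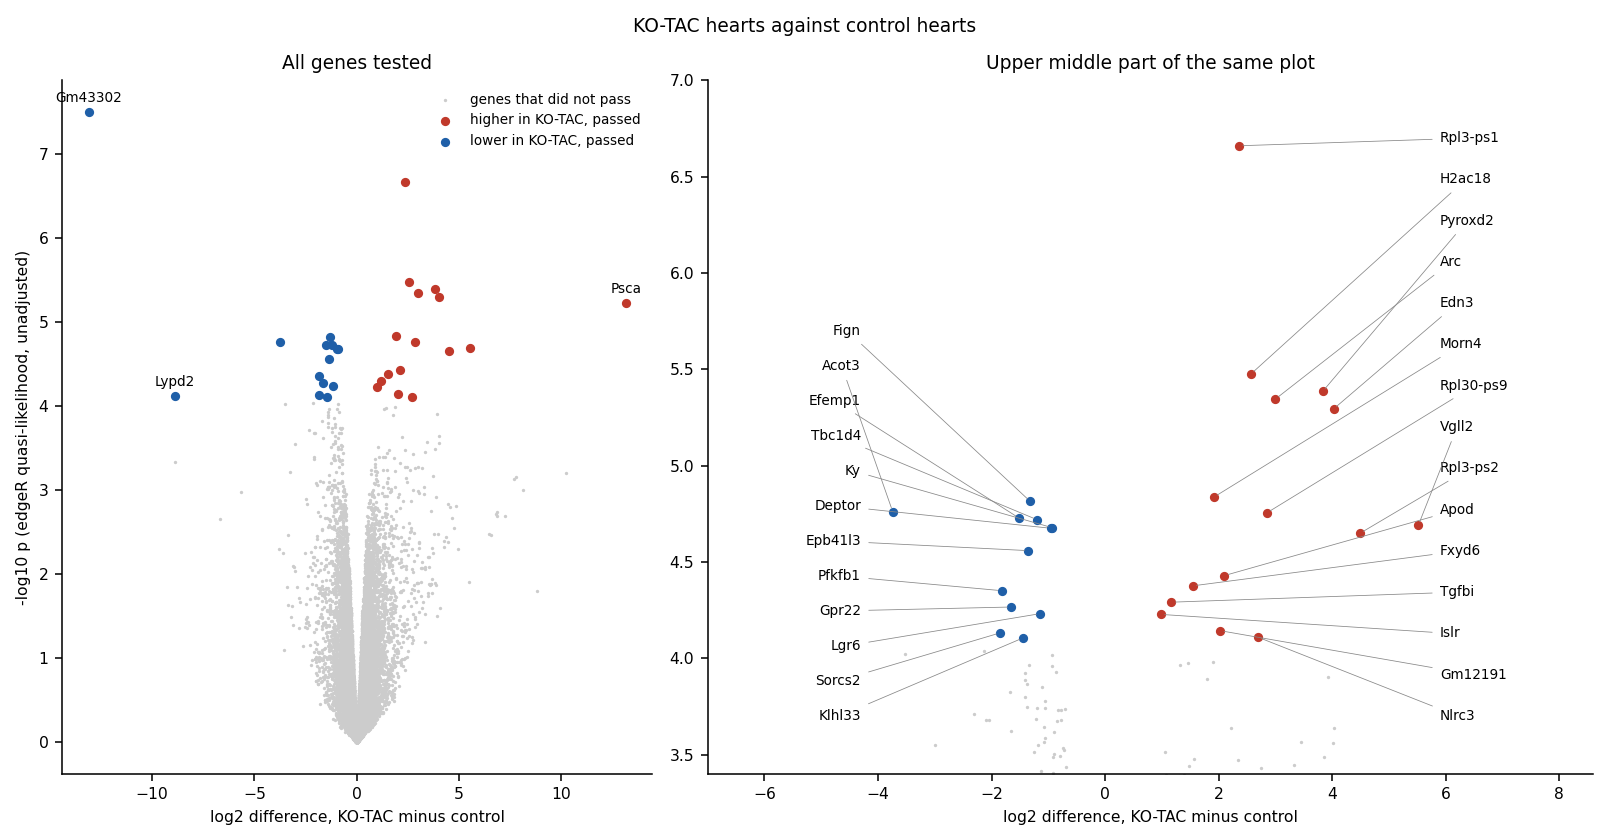
Log2 difference of KO-TAC from control (x axis) against -log10 of the unadjusted edgeR p (y axis) for the 18270 genes tested, with the upper middle part enlarged on the right. The 16 genes that passed as higher are red, the 14 that passed as lower are blue; Psca, Lypd2 and Gm43302, each at 0 in all hearts of a group, lie far out because a fitted log2 difference against 0 is not bounded.

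Edn3, which rose, encodes endothelin-3, a vasoactive peptide related to endothelin-1 (chromosome 2, 174760619 to 174784042, plus strand). It was counted at 0.703, 0.596 and 0.256 CPM in control hearts and 9.30, 10.06 and 5.89 CPM in KO-TAC hearts, 16.3-fold higher (log2 4.03, SE 0.39; edgeR adjusted p = 0.0155). The lowest KO-TAC heart was far above the highest control heart. Edn1, the ligand usually studied in the heart, did not pass (log2 0.16, SE 0.30; edgeR adjusted p = 0.80). The receptor genes Ednra (log2 -0.20, SE 0.20) and Ednrb (log2 0.11, SE 0.13), which bind both peptides with different preference, did not pass either, at edgeR adjusted p = 0.622 and 0.672.

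Vgll2, a cofactor of the TEAD transcription factors best known from skeletal muscle, was nearly silent in control hearts at 0.100, 0 and 0.128 CPM. It reached 3.32, 4.39 and 3.41 CPM in KO-TAC hearts, 45.9-fold higher (log2 5.52, SE 0.65; edgeR adjusted p = 0.0241). The upstream sequences of Vgll2 and Edn3, 2 of the strongest rises, are shown beside those of Nppa and Nppb, the classical load-responsive peptide genes described further on. Each is the 250 bases before the RefSeq gene start (build GRCm38.p6), 5′ to 3′ along the plus strand, in which all 4 genes lie, and capitals mark the E-box CACGTG, the TATA box TATAAA or TTTATA and the MCAT element CATTCC or GGAATG, the letters TEAD factors bind. The windows are chr10:52022252-52022501 for Vgll2, chr2:174760369-174760618 for Edn3, chr4:148000472-148000721 for Nppa and chr4:147985650-147985899 for Nppb.
Vgll2: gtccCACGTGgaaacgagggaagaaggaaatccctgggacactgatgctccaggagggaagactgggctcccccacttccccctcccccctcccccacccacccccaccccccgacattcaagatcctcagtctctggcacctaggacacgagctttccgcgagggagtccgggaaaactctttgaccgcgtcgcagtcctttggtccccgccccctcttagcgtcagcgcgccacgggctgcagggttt
Edn3: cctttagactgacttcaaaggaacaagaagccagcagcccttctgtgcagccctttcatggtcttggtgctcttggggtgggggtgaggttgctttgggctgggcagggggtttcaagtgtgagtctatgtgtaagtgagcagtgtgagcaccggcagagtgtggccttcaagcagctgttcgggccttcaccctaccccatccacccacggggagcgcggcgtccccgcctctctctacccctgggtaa
Nppa: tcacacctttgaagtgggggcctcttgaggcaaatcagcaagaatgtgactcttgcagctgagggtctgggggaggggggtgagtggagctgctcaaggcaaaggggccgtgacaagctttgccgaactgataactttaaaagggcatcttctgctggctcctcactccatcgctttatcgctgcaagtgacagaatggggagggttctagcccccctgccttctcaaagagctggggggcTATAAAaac
Nppb: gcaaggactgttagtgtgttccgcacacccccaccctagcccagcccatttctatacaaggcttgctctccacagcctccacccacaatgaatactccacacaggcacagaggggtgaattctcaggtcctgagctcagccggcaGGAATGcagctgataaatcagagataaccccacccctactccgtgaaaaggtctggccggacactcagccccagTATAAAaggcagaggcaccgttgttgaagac

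In these windows Vgll2 held the E-box and Edn3 none of the 3 motifs, Nppa held a TATA box close to its start, and Nppb a TATA box and an MCAT element. Of the 30 genes that passed, 20 had a promoter in the RefSeq table, 10 higher and 10 lower. On either strand the E-box was in 1 of 10 higher genes (Vgll2) and 0 of 10 lower genes, beside 9.52% of the 12325 tested genes with a promoter. The TATA letters were in 0 of 10 and 2 of 10 (Gpr22 and Pfkfb1), beside 8.73%, and the MCAT letters in 0 of 10 and 1 of 10 (Klhl33), beside 13.2%. The motifs share no bases with one another, and a match is a stretch of letters and not a measured binding site.

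Psca, a small cell-surface protein of the Ly6 family held by a lipid anchor (chromosome 15, 74714839 to 74717069), had a count of 0 in all 3 control hearts. It was at 5.71, 17.45 and 15.49 CPM in KO-TAC hearts, at least 1000-fold higher against a floor of 3 counts over the control group (edgeR adjusted p = 0.0157). Arc is an immediate early gene whose protein acts at synapses and forms capsids. It lies on the minus strand, and its lower coordinate is 45.8 kb before the Psca start. Its level was 2.32, 2.87 and 3.52 CPM in control and 14.3, 27.7 and 27.9 CPM in KO-TAC hearts, 8.00-fold higher (log2 3.001, SE 0.29; edgeR adjusted p = 0.0155). KO-TAC replicate 1 was the lowest KO-TAC heart for both genes. Lypd2, another Ly6-family gene on the minus strand, has its lower coordinate 17.4 kb after the Psca start. It fell from 0.553, 0.536 and 0.906 CPM to 0 in all 3 KO-TAC hearts, at least 64.8-fold lower (edgeR adjusted p = 0.0478). It lies below the level set for naming and was chosen after its values were seen.

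These neighbours lie on the chromosome that carries Myc. Within 500 kb of the Psca start, 14 genes were tested and 3 passed, namely Psca, Arc and Lypd2, beside 0.164% over all genes. The window was placed around Psca after the calls were seen, so these 3 calls are no measure of clustering. Them6, 6.4 kb away, and Lynx1, 33 kb away, were lower in every KO-TAC heart without passing (log2 -0.74 and -0.60, edgeR adjusted p = 0.149 and 0.198). Ly6k, Ly6a and Ly6c1 were higher in every KO-TAC heart without passing (log2 2.56, 0.70 and 0.80, edgeR adjusted p = 0.131, 0.228 and 0.192). For the rest of the window the groups overlapped. The Psca start is 12.7 Mb from that of Myc, and Deptor, the fourth gene of chromosome 15 that passed, starts 6.87 Mb from it on the other side. Chromosome 15 held 4 of the 30 calls (13.3%) and 3.79% of the genes tested, and the X chromosome also held 4 calls (13.3%) with 3.15% of the genes tested. The hearts also differ in whatever alleles came with the floxed and Cre lines, and the part of such linked sequence in these values was not tested.

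Tgfbi, a matrix protein induced by TGF-beta, was at 15.8, 14.2 and 15.5 CPM in control and 36.5, 39.0 and 27.1 CPM in KO-TAC hearts, 2.25-fold higher (log2 1.17, SE 0.16; edgeR adjusted p = 0.0425). Islr, an immunoglobulin-like surface protein of mesenchymal cells also called meflin, was 1.98-fold higher (log2 0.98, SE 0.13; edgeR adjusted p = 0.0433). Its annotated exons overlap those of Islr2 on the same strand. Apod, a secreted lipid carrier, was 4.29-fold higher (edgeR adjusted p = 0.0358) and Fxyd6, a small regulator of the sodium pump, 2.92-fold higher (edgeR adjusted p = 0.0385), with KO-TAC replicate 2 the highest heart for both. For each of these 4 genes every KO-TAC heart was above every control heart.

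The remaining genes that rose were of mixed function. Pyroxd2, a mitochondrial oxidoreductase-like protein, was at 1.08, 1.10 and 1.29 CPM in control and 25.9, 9.76 and 13.8 CPM in KO-TAC hearts, 14.2-fold higher (log2 3.83, SE 0.37; edgeR adjusted p = 0.0155). Its exons overlap AC125458.1 on the opposite strand. Morn4, also on chromosome 19, was 3.78-fold higher (edgeR adjusted p = 0.0241), from 0.941 to 1.09 CPM in control and from 3.65 to 4.11 CPM in KO-TAC hearts. Nlrc3, a damper of innate immune signalling, was 6.47-fold higher (edgeR adjusted p = 0.0478), and the histone gene H2ac18 5.94-fold higher (edgeR adjusted p = 0.0155). H2ac18 had no match in the annotation used for positions.

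The other 4 genes that rose were processed pseudogenes, 3 of them copies of ribosomal protein genes on the X chromosome. Rpl3-ps1 was at 7.02, 6.49 and 7.23 CPM in control and 36.8, 28.9 and 40.9 CPM in KO-TAC hearts, 5.14-fold higher (log2 2.36, SE 0.16; edgeR adjusted p = 0.0020). Rpl3-ps2 was 22.5-fold and Rpl30-ps9 7.22-fold higher (both edgeR adjusted p = 0.0241), and Gm12191 on chromosome 11 was 4.08-fold higher (edgeR adjusted p = 0.0478). Reads of such copies can be counted at the parent gene or at the copy, so these values are uncertain. The parent Rpl3 did not pass, at 85.6, 90.8 and 102.1 CPM in control and 145.4, 120.2 and 67.5 CPM in KO-TAC hearts. The sum of Rpl3 and both copies was 92.9 to 109.6 CPM in control and 187, 153.6 and 114.7 CPM in KO-TAC hearts, which did not overlap. Rpl30 was at 41.6 to 53.2 CPM in control and 9.40, 40.95 and 5.04 CPM in KO-TAC hearts, a log2 difference of -1.40 (SE 0.64) that did not pass (edgeR adjusted p = 0.285). Its sum with Rpl30-ps9 was 42.5 to 54.1 CPM in control and 19.4, 45.2 and 11.1 CPM in KO-TAC hearts, which overlap. Gm12191 and any further copies were left out of both sums, so a sum need not hold all reads of a parent gene.

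**Figure D2:**
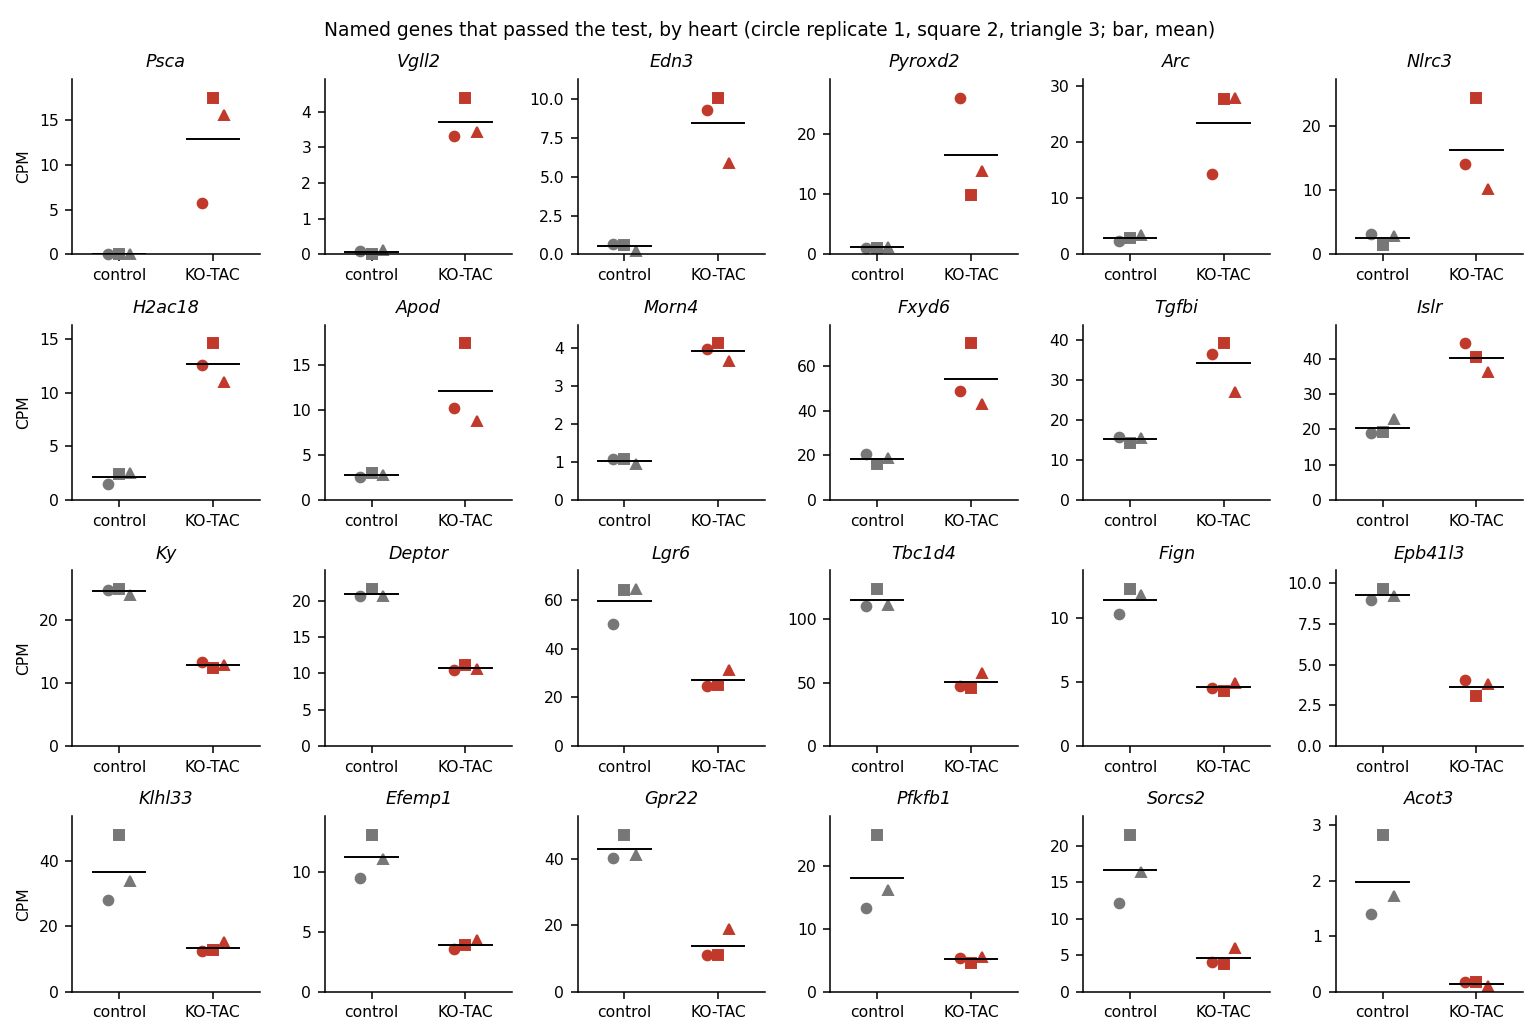
CPM (y axis, from 0, a scale of its own in each panel) of 24 genes that passed the edgeR test, by group (x axis), with 1 point for each heart and a bar at the group mean; pseudogenes, Gm43302 and Lypd2 are left out. No panel has a KO-TAC heart within the range of the control hearts. Deptor and Ky have KO-TAC hearts close together, while Pyroxd2 and Psca spread more widely.

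Among the 14 genes that fell, Tbc1d4, known as AS160, is the Rab GTPase-activating protein that insulin signalling inhibits to release the glucose transporter Slc2a4 to the cell surface. It was at 110.2, 123.9 and 111.5 CPM in control and 47.6, 45.6 and 57.6 CPM in KO-TAC hearts, 2.29-fold lower (log2 -1.197, SE 0.14; edgeR adjusted p = 0.0241). Pfkfb1, a bifunctional enzyme that sets fructose 2,6-bisphosphate, the activator of glycolysis, was 3.54-fold lower (log2 -1.82, SE 0.24; edgeR adjusted p = 0.0388), with 13.4, 24.9 and 16.1 CPM against 5.386, 4.497 and 5.467 CPM. The KO-TAC values of Pfkfb1 were close together, and control replicate 2 stood above the other control hearts for both genes.

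Acot3, an acyl-CoA thioesterase of peroxisomes, was at 1.41, 2.83 and 1.72 CPM in control and 0.172, 0.164 and 0.100 CPM in KO-TAC hearts, 13.4-fold lower (log2 -3.74, SE 0.43; edgeR adjusted p = 0.0241). Its exons overlap 2 other gene models and its sequence is close to that of its neighbours Acot1 and Acot2. Those did not pass (log2 -1.50 and -0.77, edgeR adjusted p = 0.188 and 0.273), and the 3 genes summed to 80.1 to 133.2 CPM in control and to 30.2, 44.3 and 84.9 CPM in KO-TAC hearts, which overlap. Most of this sum was Acot2, at 67.61 to 101.5 CPM in control hearts. The sum therefore cannot show whether reads of Acot3 were counted at a neighbour. Deptor, an inhibitor that binds the mTOR kinase, was at 20.6, 21.6 and 20.6 CPM in control and 10.5, 11.2 and 10.6 CPM in KO-TAC hearts, 1.95-fold lower (log2 -0.96, SE 0.11; edgeR adjusted p = 0.0241). The 3 hearts of each group were almost alike for this gene.

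Gpr22, an orphan G protein-coupled receptor of myocardium, was at 40.2, 47.2 and 41.0 CPM in control and 10.9, 11.1 and 18.9 CPM in KO-TAC hearts, 3.14-fold lower (log2 -1.65, SE 0.22; edgeR adjusted p = 0.0431). Lgr6, a receptor of R-spondins that boosts Wnt signalling, was 2.21-fold lower (log2 -1.14, SE 0.15; edgeR adjusted p = 0.0433), and Sorcs2, a sorting receptor, 3.60-fold lower (log2 -1.85, SE 0.26; edgeR adjusted p = 0.0478). KO-TAC replicate 3 was the highest KO-TAC heart for each of the 3 receptors and still lay below every control heart.

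Ky, a transglutaminase-like protein of the muscle Z-disc, was 1.91-fold lower (log2 -0.94, SE 0.11; edgeR adjusted p = 0.0241), with 23.9 to 24.9 CPM in control and 12.3 to 13.4 CPM in KO-TAC hearts. Efemp1, the matrix protein fibulin-3, was 2.86-fold lower (edgeR adjusted p = 0.0241), against the direction of Tgfbi. Epb41l3, a membrane skeleton protein, and Fign, a microtubule-severing ATPase, were 2.55-fold and 2.49-fold lower (edgeR adjusted p = 0.0281 and 0.0241). Klhl33, of the Kelch-like family, was 2.72-fold lower (edgeR adjusted p = 0.0478). Gm43302, a predicted model, went from 11.6, 14.2 and 11.2 CPM to a count of 0 in all 3 KO-TAC hearts, at least 1200-fold lower (edgeR adjusted p = 0.000583). Wild-type TAC replicates 1, 2 and 3 were at 0, 17.33 and 5.115 CPM on the scale of all 9 libraries, so a value of 0 was not particular to KO-TAC hearts. Gm43302 shares exons with Gbp10 and Gbp6 on the same strand, so its reads can be assigned to either. Gbp6 (log2 0.31, SE 0.21) and Gbp10 (log2 0.93, SE 0.47) did not pass.

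Loaded wild-type hearts stood on the same side of control for many of these genes. Among the 16 genes that rose, all 3 wild-type TAC hearts were above all control hearts for 9, and among the 14 that fell they were below for 11, on the scale that normalizes all 9 libraries. Tbc1d4 was at 55.0, 65.9 and 33.3 CPM in those TAC hearts and Deptor at 13.9, 11.6 and 10.2 CPM, close to the KO-TAC hearts. Edn3 was at 8.90, 4.59 and 1.39 CPM. Psca was at 0, 0.0624 and 0.405 CPM and Rpl30-ps9 at 1.77, 0.780 and 0.602 CPM, nearer to control. The comparisons share the KO-TAC and the control hearts, and the genes were selected for their difference from these same control hearts. The share of all tested genes that separated wild-type TAC from control hearts is not given here. The counts of genes on the same side are therefore no measure of likeness between the loaded groups. Tested directly between KO-TAC and TAC hearts, 0 of 19051 genes passed (edgeR quasi-likelihood test, 9-library fit; 0% called), with 1420 at an unadjusted p under 0.05. Between KO-TAC and TAC hearts Psca differed by 6.34 (SE 1.13) and Arc by 1.82 (SE 0.34) on the log2 scale, with edgeR adjusted p of 0.267 and 0.250.

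In the hypertrophic fetal program, the genes by which loaded myocytes are usually recognised, the KO-TAC hearts were high without any member passing. Of 20 genes tested, 18 were above control, with a median log2 difference of 0.95, beside 53.5% of all genes above 0 and a median of 0.03. In 11 of the 20 every KO-TAC heart lay above every control heart and in 0 below, where 13.2% and 13.9% of all genes did. edgeR called 0 members and DESeq2 called 10 higher and 0 lower, beside 2.99% and 3.02% of all genes. Nppa, the atrial natriuretic peptide gene, was at 124.4, 57.7 and 136.5 CPM in control and 1264, 720.2 and 303.3 CPM in KO-TAC hearts (log2 2.84, SE 0.53; edgeR adjusted p = 0.0874, DESeq2 0.0004). Nppb, the B-type peptide, was at 129.6, 34.5 and 84.4 CPM against 262.4, 395 and 343.7 CPM (log2 2.01, SE 0.42; edgeR adjusted p = 0.106). Acta1, skeletal alpha-actin, spread from 19.7 to 161.3 CPM in control and from 549.9 to 4730 CPM in KO-TAC hearts (log2 4.46, SE 0.96; edgeR adjusted p = 0.116). Myh7, the slow myosin heavy chain, was at 971.4 to 1232 CPM and at 2948, 4657 and 1474 CPM (log2 1.40, SE 0.38; edgeR adjusted p = 0.149). KO-TAC replicate 3 was the lowest KO-TAC heart for Nppa, Acta1 and Myh7, and control replicate 2 the lowest control heart for all 4 genes.

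**Figure D3:**
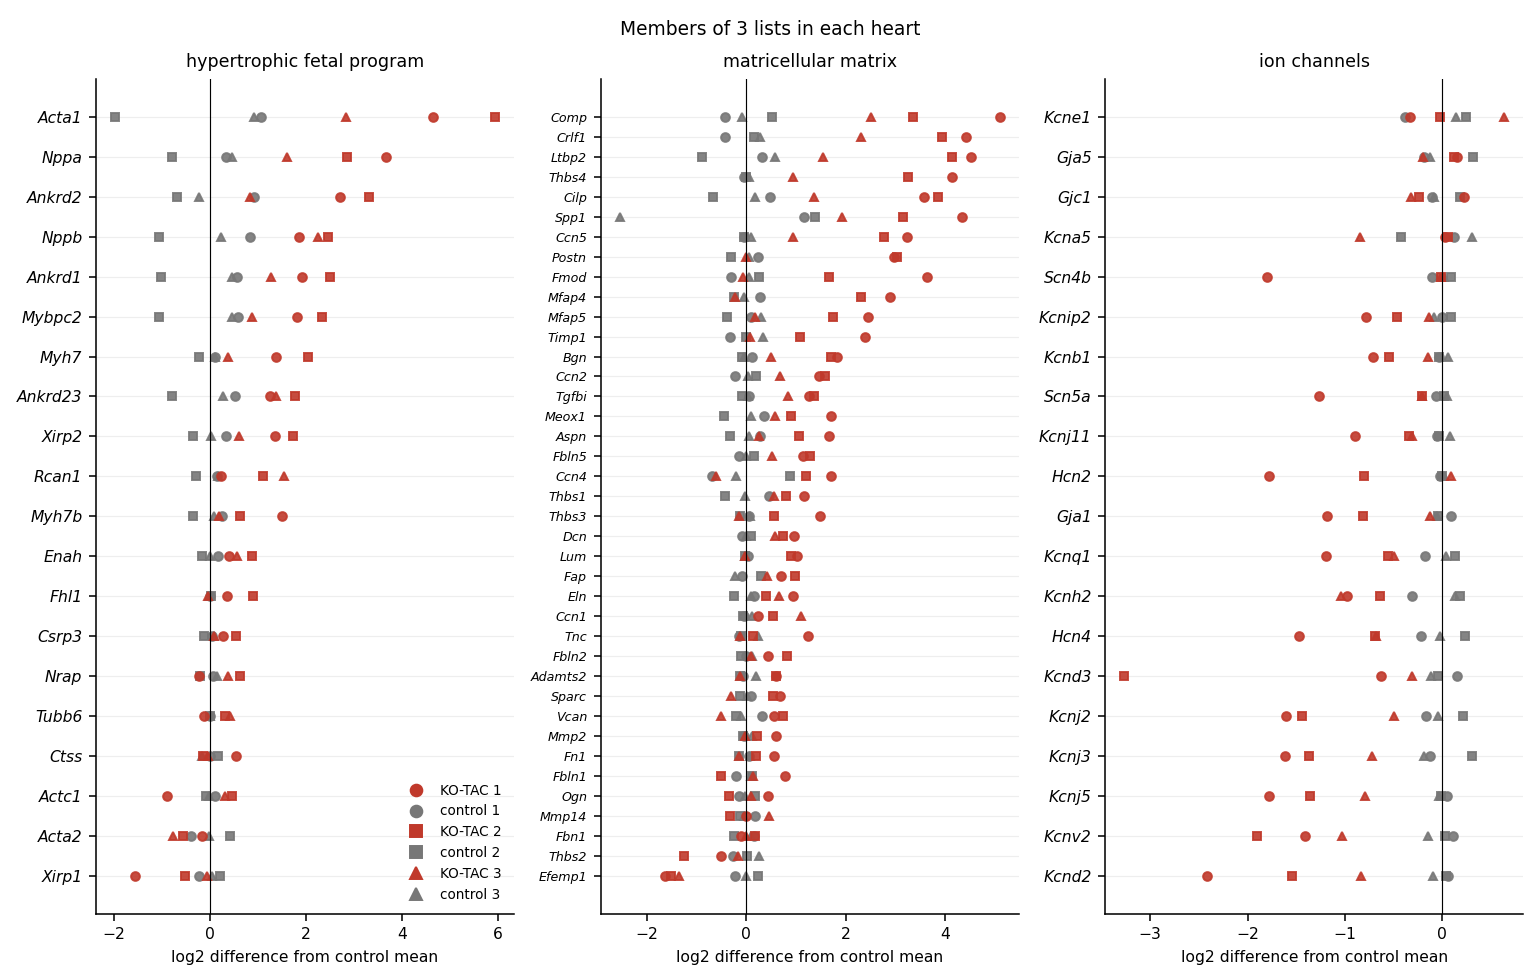
Log2 CPM of each heart minus the mean of the control hearts (x axis) for each tested member of 3 lists (y axis, ordered by the fitted difference), grey for control and red for KO-TAC, with the symbol giving the replicate. The red triangles of KO-TAC replicate 3 lie closest to 0 for most fetal, matrix and channel genes.

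Matricellular genes, whose products sit in the matrix and signal to cells, lay above control for 37 of 39 members (median log2 difference 0.82). Tgfbi passed as higher and Efemp1 as lower, and the other 37 did not pass; DESeq2 called 16 higher and 1 lower, beside 2.99% and 3.02% of all genes. Without KO-TAC replicate 3 edgeR called 23 higher and 1 lower, beside 4.4% and 5.61% of all genes, and the median was 1.148. Without KO-TAC replicate 1 or 2 the median was 0.657 and 0.844. The heart medians were 1.24, 0.91 and 0.18 in KO-TAC replicates 1, 2 and 3. Comp, a pentameric matrix protein, was at 1.29, 2.53 and 1.66 CPM in control and 61.2, 18.1 and 10.2 CPM in KO-TAC hearts (log2 4.04, SE 0.66; edgeR adjusted p = 0.0671). Cilp, a matrix protein of activated cardiac fibroblasts, was at 9.96, 4.47 and 8.09 CPM against 85.7, 103.1 and 18.4 CPM (log2 3.20, SE 0.59; edgeR adjusted p = 0.0874). Ltbp2, a microfibril protein related to TGF-beta binding proteins, gave a log2 difference of 3.75 (SE 0.72; edgeR adjusted p = 0.0952). For each of the 3 genes KO-TAC replicate 3 was above control and the lowest of the KO-TAC hearts.

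Postn, periostin, the usual marker of activated cardiac fibroblasts, split the KO-TAC hearts. It was at 34.1, 23.5 and 30.2 CPM in control and 226.3, 238.5 and 28.6 CPM in KO-TAC hearts, so that replicate 3 lay within the control range (log2 2.49, SE 0.65; edgeR adjusted p = 0.146). Without that heart the log2 difference was 2.99 and passed (edgeR adjusted p = 0.0011). Leaving out a heart for its low value raises the difference by construction, so this pass is no support. Without KO-TAC replicate 1 the log2 difference was 2.185 and did not pass (edgeR adjusted p = 0.19). The 11 tested markers of activated fibroblasts had heart medians of 1.71, 2.17 and 0.42, and 0 passed with all 6 hearts. Genes of fibrillar collagen and its processing had a median of 0.44, with 20 of 27 above control and 0 passing. Col1a1, the main fibrillar chain, was at 64.6 to 79.9 CPM in control and 93.8, 107.7 and 62.0 CPM in KO-TAC hearts, which overlap (log2 0.30, SE 0.21; edgeR adjusted p = 0.458). Markers of resting fibroblasts had a median of 0.19, with 10 of 15 above 0 and 0 passing.

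Ion channel genes were low in loaded knockout hearts. Of 20 genes of channels and conduction 18 were below control, with a median log2 difference of -0.64, and in 14 every KO-TAC heart lay below every control heart, where 13.9% of all genes did. edgeR called 0 of them and DESeq2 8 lower, beside 3.02% of all genes. Kcnv2, a modifier of voltage-gated potassium channels, was at 17.8, 16.7 and 14.8 CPM in control and 6.16, 4.37 and 8.01 CPM in KO-TAC hearts (log2 -1.41, SE 0.22; edgeR adjusted p = 0.0615). Kcnj5, a subunit of the acetylcholine-gated potassium channel, was at 70.2 to 74.1 CPM against 20.9, 27.9 and 41.4 CPM (log2 -1.25, SE 0.23; edgeR adjusted p = 0.0831). Kcnd2, a pore subunit of the fast transient outward current, was at 22.2 to 24.8 CPM against 4.43, 8.13 and 13.4 CPM (log2 -1.47, SE 0.34; edgeR adjusted p = 0.124). Chrm2, the muscarinic receptor that opens the Kcnj5 channel, was also lower in each KO-TAC heart (log2 -1.33, SE 0.25; edgeR adjusted p = 0.0943). On the scale of all 9 libraries, wild-type TAC replicates 1, 2 and 3 had 5.01, 9.78 and 1.956 CPM for Kcnv2. They had 10.26, 39.35 and 1.91 CPM for Kcnj5 and 2.193, 22.6 and 0.4051 CPM for Kcnd2. Low values of these channel genes were therefore not particular to KO-TAC hearts.

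Calcium handling genes had a median of -0.43, with 13 of 15 below control, 0 passing by edgeR and 6 lower by DESeq2, beside 3.02% of all genes. Atp2a2, the calcium pump of the sarcoplasmic reticulum, was at 12330, 13060 and 12000 CPM in control and 3616, 5586 and 9594 CPM in KO-TAC hearts (log2 -0.99, SE 0.35; edgeR adjusted p = 0.205). Ryr2, the calcium release channel, gave -0.96 (SE 0.35) and Pln, the inhibitor of the pump, -0.63 (SE 0.23), at edgeR adjusted p = 0.213 and 0.215. Myh6, the adult fast myosin heavy chain, was at 32440 to 32720 CPM in control and 14510, 23740 and 28450 CPM in KO-TAC hearts (log2 -0.55, SE 0.31; edgeR adjusted p = 0.366). The order of the KO-TAC hearts was the same for Atp2a2 and Myh6, with replicate 1 lowest and replicate 3 highest. Cardiac transcription factors had a median of -0.38, with 16 of 18 below control and 0 passing by edgeR, among them Gata6 (log2 -0.77, SE 0.12; edgeR adjusted p = 0.0648) and Tbx5 (log2 -1.19, SE 0.24; edgeR adjusted p = 0.101). The 10 cardiomyocyte markers had heart medians of -0.55, -0.04 and -0.01 in KO-TAC replicates 1, 2 and 3, beside -1.19, -0.60 and -0.32 for the channel genes, and their list median of -0.09 turned to 0.12 with library size alone.

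**Figure D4:**
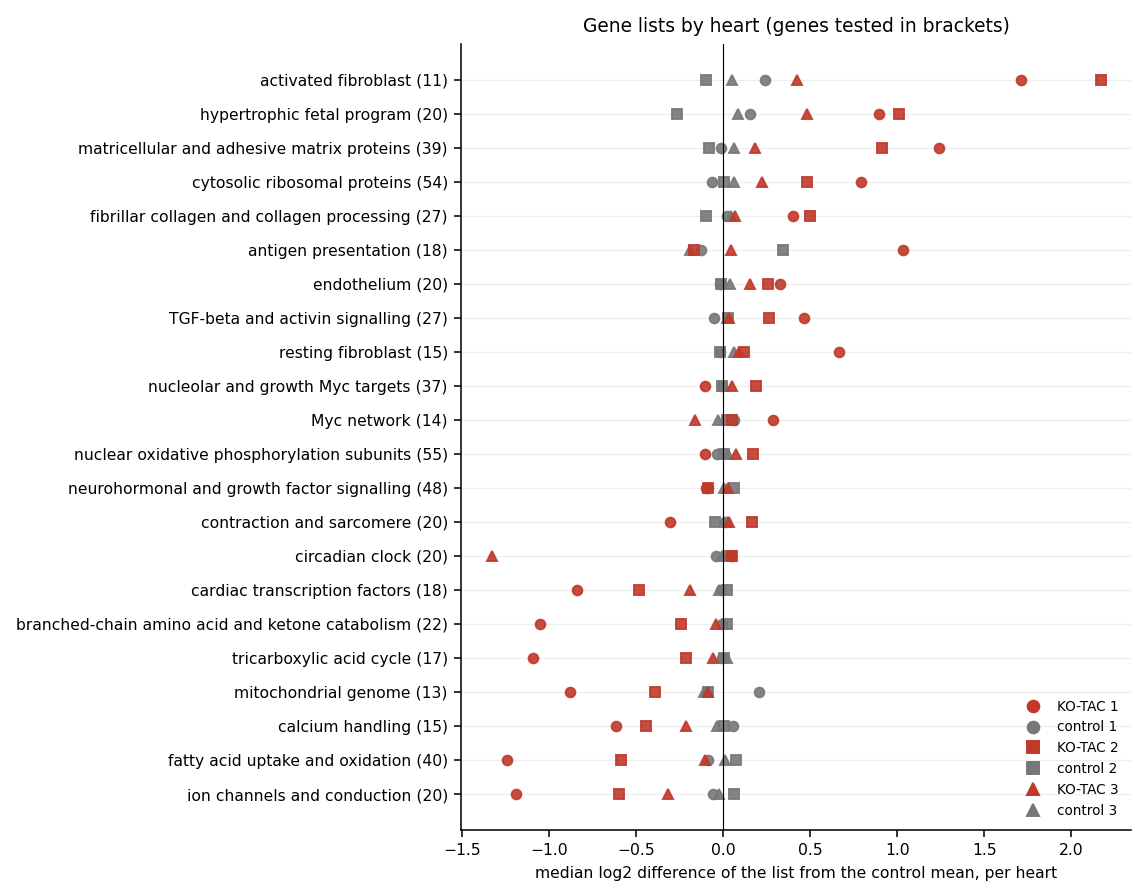
Median log2 difference from the control mean (x axis) of 22 gene lists (y axis, number of genes tested in brackets) in each heart, grey for control and red for KO-TAC, with the symbol giving the replicate. Fetal, matrix and ribosomal lists lie to the right and channel and fatty acid lists to the left in KO-TAC replicates 1 and 2, while replicate 3 lies nearer to 0 for these lists. In replicate 3 the clock genes lie at -1.33, and the Myc network, at -0.164, lies on the other side of 0 from replicates 1 and 2.

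Fatty acid uptake and oxidation genes had a median of -0.57, with 36 of 40 below control and 18 fully separated below, where 13.9% of all genes were. By edgeR 0 passed and by DESeq2 6, beside 3.02% of all genes. Without KO-TAC replicate 3 edgeR called 18 lower, beside 5.61% of all genes, and the median was -0.92. Without KO-TAC replicate 1 or 2 the median was -0.319 and -0.553. The heart medians were -1.24, -0.59 and -0.10. Ppara, the nuclear receptor that drives fatty acid oxidation, was at 34.5, 25.3 and 26.2 CPM in control and 4.27, 8.50 and 16.4 CPM in KO-TAC hearts (log2 -1.56, SE 0.41; edgeR adjusted p = 0.147). Hadha, a subunit of the trifunctional protein of beta-oxidation, was at 1328 to 1517 CPM against 362.5, 868.7 and 1274 CPM (log2 -0.78, SE 0.39; edgeR adjusted p = 0.319). All 17 genes of the tricarboxylic acid cycle were below control with 0 passing (median -0.40), as were 21 of 22 genes of branched-chain amino acid and ketone catabolism (median -0.38, 0 passing). Nuclear oxidative phosphorylation subunits did not follow as a list: 31 of 55 were above control, 24 were below and the median was 0.05. Without KO-TAC replicate 2 the median was -0.039. Members split in KO-TAC replicate 1, from -1.838 for Ndufs1 to 0.606 for Ndufa13, so the list median does not describe each subunit. The 13 mitochondrially encoded genes had a median of -0.42 and 0 passed. In glycolysis the median of 32 genes was -0.03, Pfkfb1 was the gene that passed, and the sign of this median turned to 0.16 with library size alone.

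Of 54 genes for proteins of the cytosolic ribosome, 53 were above control (median log2 difference 0.52), and in 47 every KO-TAC heart lay above every control heart, where 13.2% of all genes did. edgeR called 0 and DESeq2 23 higher, beside 2.99% of all genes, and the heart medians were 0.79, 0.48 and 0.22. These transcripts are short, and short transcripts counted for more in the KO-TAC libraries. The length correlation was -0.19, -0.22 and -0.16 in KO-TAC replicates 1, 2 and 3, not in the order of the heart medians. The part of length in this result, in the lists that fell and in the split among oxidative phosphorylation subunits was not tested. Rpl17, with 17.9 to 21.4 CPM in control and 102, 69.5 and 24.4 CPM in KO-TAC hearts, had the largest difference of the list (log2 1.72, SE 0.43; edgeR adjusted p = 0.139).

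Among neurohormonal and growth factor genes, Edn3 passed and the other 47 tested did not, with a median of 0.02 and members on both sides. DESeq2 called 6 higher and 11 lower, beside 2.99% and 3.02% of all genes. Angpt1, a ligand that steadies vessels through the Tie2 receptor, was at 28.5, 64.6 and 25.5 CPM in control and 8.68, 5.71 and 9.43 CPM in KO-TAC hearts (log2 -2.31, SE 0.37; edgeR adjusted p = 0.0648). Nr3c2, the mineralocorticoid receptor, was at 22.1, 28.2 and 22.4 CPM against 9.16, 11.7 and 13.5 CPM (log2 -1.08, SE 0.18; edgeR adjusted p = 0.0671). Agtr1a, the angiotensin II receptor, was at 35.3, 43.4 and 40.5 CPM against 17.91, 22.25 and 23.98 CPM (log2 -0.89, SE 0.15; edgeR adjusted p = 0.0677). The groups did not overlap for these 3 genes, and DESeq2 gave each an adjusted p under 0.05 (7.9e-09, 3.3e-05 and 7.7e-05).

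Nox4, an NADPH oxidase that makes hydrogen peroxide, was at 0.955, 0.357 and 0.604 CPM in control and 11.7, 6.82 and 2.58 CPM in KO-TAC hearts (log2 3.45, SE 0.58; edgeR adjusted p = 0.0726). Ccl11, the eosinophil chemokine eotaxin, was at 2.98, 4.44 and 3.03 CPM against 0.855, 0.506 and 1.08 CPM (log2 -2.09, SE 0.34; edgeR adjusted p = 0.0648). Cxcl1, a neutrophil chemokine, did not separate the groups (0.791, 0.938 and 0.395 CPM against 1.838, 0.3007 and 0.6004 CPM; edgeR adjusted p = 0.78). Its receptor Cxcr2 was at 0 to 0.290 CPM in the 6 hearts, so a difference was not detectable at this depth. Antigen presentation genes were high in KO-TAC replicate 1 (heart median 1.03) but not in replicates 2 and 3 (-0.17 and 0.05), and 0 of 18 passed. Endothelial markers had a median of 0.27, with 18 of 20 above control and 0 passing.

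Clock genes set KO-TAC replicate 3 apart from the other 5 hearts. The 20 genes had heart medians of 0.04 and 0.05 in KO-TAC replicates 1 and 2 and -1.33 in replicate 3, and 0 passed. Arntl, the activator of the clock, was at 1.26 to 3.94 CPM in the other 5 hearts and 24.2 CPM in KO-TAC replicate 3. Dbp, an output gene, was at 105 to 159.5 CPM in those 5 hearts and 6.41 CPM in replicate 3. The repressors Per1 (55.7 to 91.0 CPM against 6.62 CPM) and Per2 (21.3 to 53.8 CPM against 3.20 CPM) were low in the same heart. The groups cannot be compared for such genes, because 1 heart sets the KO-TAC mean: without it the median of the list was 0.09 in place of -0.20, and with library size alone it was 0.06. No label used here states the hour at which hearts were collected. KO-TAC replicate 3 is also the heart whose fetal, matrix and channel genes were nearest to control, and whether these are related was not tested.

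**Figure D5:**
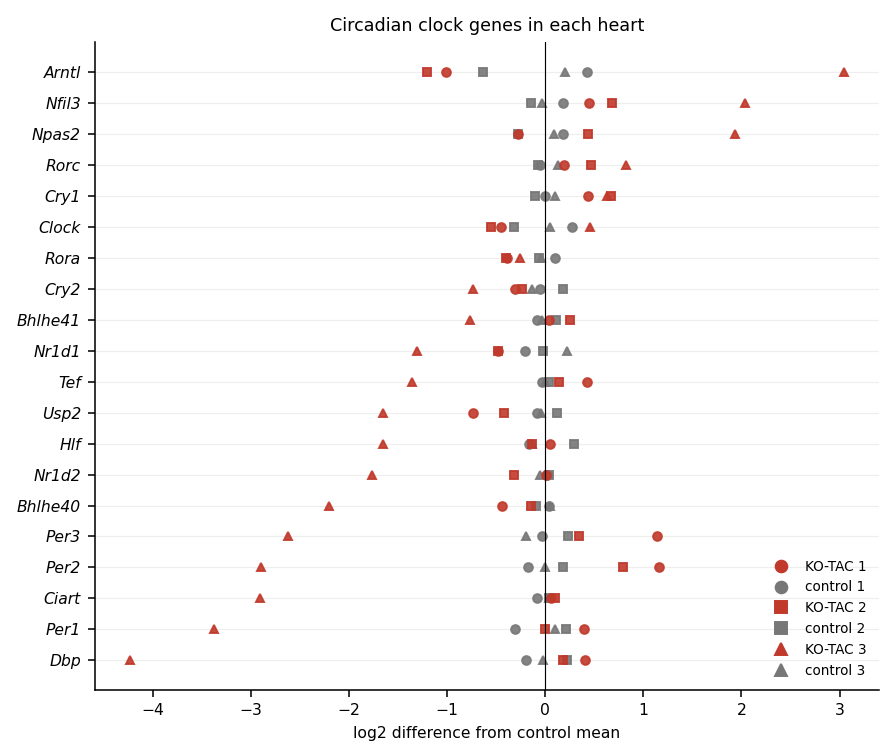
Log2 CPM of each heart minus the control mean (x axis) for 20 circadian clock genes (y axis, ordered by KO-TAC replicate 3), grey for control and red for KO-TAC, with the symbol giving the replicate. KO-TAC replicate 3 (triangle) is at 3.04 for Arntl and -4.23 for Dbp, while the other 5 hearts lie close together for Dbp.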

How the data were processed

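RNA-seq of mouse hearts gave 1 table of whole-number counts per gene, deposited by the authors; the submitters' processing notes name HISAT2 (2.2.1) and, with no stated role, StringTie (2.2.1), DESeq2 (1.42.0) and the build GRCm38/mm10. Which tool counted the reads is not stated there, and a count of 4 was more frequent than 3 or 5 (915, 553 and 329 rows in control replicate 1). Groups came from the sample titles. Genes were kept with edgeR's filterByExpr (minimum count 10), scaled by TMM and tested in the 6 libraries with edgeR 4.0.16 quasi-likelihood (glmQLFit, R 4.3.3), adjusted by Benjamini-Hochberg over all 18270 genes; the steps were tested on simulated data. Standard errors are those of the fitted log2 difference; log2 CPM per heart used a prior count of 2. DESeq2, limma 3.58.1 (voom), other scalings and filters, a replicate block and each left-out library were alternatives. Genes were named by rule: 11 in any case (among them Myc, Nppa and Postn), up to 12 each way that passed with separated groups and a mean of at least 1 CPM, and up to 6 passing or otherwise 2 abundant members of a list; pseudogenes, Gm43302, Lypd2, the genes near the threshold, the clock genes and the other genes outside it were chosen after their values were seen. The members and the 31 pathway and 18 cell type lists were chosen with earlier results of these data known. Same-numbered hearts did not deviate together (correlations -0.005, -0.038 and 0.009). Promoters came from RefSeq (GRCm38.p6).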

Additional observations from a re-analysis of the deposited data

How the results depend on the processing

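The counts of 16 higher and 14 lower genes depended on the test and on single hearts, and the cause was not tested. DESeq2 gave 546 and 552, limma-voom with quality weights 1012 and 1213, and no low-count filter 35 and 47; the fit to all 9 libraries gave 0 and 0 (edgeR, 1098 at an unadjusted p under 0.05). Fewer lower genes passed with a fold threshold of 1.2 (6) and with library size alone (2), and more with the robust fit (26). The fit with the replicate block gave 10 higher and 3 lower genes, 10 of them among the 30, though the replicate numbers mark no shared animal or day. Leaving out 1 heart gave 0 to 843 higher and 1 to 1076 lower genes, and the 4 calls without KO-TAC replicate 2 were all among the 30. Genes that did not pass turned in sign, and the log2 differences were as follows. With limma-voom Edn1 was at -0.069, Arntl at -0.40 and Cxcl1 at -0.43; with library size alone Dbp was at 0.054; with the replicate block Per2 was at -0.14. Over the fits that leave out 1 heart, Edn1 ranged from -0.087 to 0.40, Arntl from -1.18 to 2.06, Dbp from -0.77 to 0.28, Per1 from -0.89 to 0.19, Per2 from -0.11 to 0.98 and Cxcl1 from -0.65 to 0.78. Arntl, Dbp and Per1 turned without KO-TAC replicate 3, and Per2 and Cxcl1 without KO-TAC replicate 1. Without KO-TAC replicate 1 the medians of the Myc network (-0.01), antigen presentation (-0.14) and interferon (-0.07) lists were below 0. With 3 hearts a group and whole-gene counts, genes under about 1 CPM were poorly resolved.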
